A study of Mus musculus with 15 samples.

Results

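Mup3, Mup4, Mup5, Mup20 and Mup21 are divergent members of the mouse major urinary protein (Mup) family, and their ribosome footprints were followed in the liver across circadian time. They were chosen by gene symbol, for their sequences, and 5 transcripts of 5 genes matched, 1 for each gene, of 28167 transcripts in all. The other 16 Mup transcripts, from 14 genes, served as the comparison. They include Mup6, which is not among the 5 but also differs from the near-identical copies. All animals were wild-type C57BL/6N males of 8 to 10 weeks, entrained to cycles of 12 h of light and 12 h of darkness and then held in constant darkness for a day before whole livers were taken. There was no treatment and no second genotype, and the groups are 7 circadian times (CT), every 4 h from CT0 to CT24, each with 2 mice and 1 library per mouse. Ribosome profiling sequences the short mRNA fragments that ribosomes shield from nuclease, so a count here is a footprint, and a change in footprints does not separate the amount of mRNA from its translation. In whole liver, fewer expressing cells and less RNA per cell cannot be told apart either.

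Major urinary proteins are small secreted lipocalins, barrel-shaped carriers that hold volatile pheromones in a central pocket. The liver of male mice makes them in very large amounts under the control of pulsatile growth hormone and of androgens, and they pass through the blood into the urine, where they act in scent marking. Most of the genes are near-identical copies in one cluster, and a few genes at its edges or between the copies have sequences of their own. Mup20 encodes darcin, the male pheromone that attracts females. Mup4 is best known from lacrimal and nasal glands and Mup5 from salivary glands, whereas Mup3 is known as a liver gene.

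The 5 genes lie on the minus strand of chromosome 4 in the mm10 (GRCm38) build. In RefSeq, Mup4 spans chr4:59956804-59960667, Mup5 chr4:61831319-61835180, Mup20 chr4:62050234-62054117, Mup3 chr4:62083476-62087317 and Mup21 chr4:62147832-62150841. The annotated coding sequence (CDS) was 82.8% to 83.9% identical between Mup3 and 10 of the other Mup genes, 84.1% to 85.0% for Mup21, 88.6% to 89.1% for Mup4, 90.1% to 90.6% for Mup5 and 90.5% to 91.4% for Mup20. Those 10 genes were 98.5% to 99.8% identical among themselves. Mup6, left out of these ranges, was 82.5% (Mup3) to 91.9% (Mup4) identical to the 5. Within the divergent set the closest pair was Mup3 and Mup21 at 94.8%, followed by Mup4 and Mup5 at 92.1%, and the most distant was Mup3 and Mup4 at 83.6%.

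To show what separates a footprint of one gene from that of another, the 28-nt stretch of a single coding exon, aligned by distance from the stop codon, in which the least different pair among the 5 genes and the copy Mup19 differed most is printed here, 5′ to 3′ on the coding strand, from RefSeq on GRCm38.p6. Capitals mark bases that differ from Mup19.
Mup3: AatgaagagtgcAccgaaAtGActGCgA
Mup21: AatgaagagtgcAccgaaAtGActTtgA
Mup4: gatgGagagtgctcTgaaAtatTtTtgg
Mup5: gatgaagagtgcAcTgaaAtatAtTtgg
Mup20: AatgaGgagtgctcTgaaAtatTtTtgg
Mup19: gatgaagagtgctccgaattatctatgg

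All of these stretches lie in exon 3. The positions are chr4:62086001-62086028 for Mup3, chr4:62149396-62149423 for Mup21, chr4:59959238-59959265 for Mup4, chr4:61833749-61833776 for Mup5, chr4:62052678-62052705 for Mup20 and chr4:61780801-61780828 for Mup19, all on the minus strand. Mup3 differed from Mup19 at 8 bases, Mup21 at 7, Mup20 at 6, and Mup4 and Mup5 at 5 each. None of the 5 stretches occurred in a transcript model of another of the 22 Mup genes annotated on chromosome 4, whereas the Mup19 stretch occurred in 7 others.

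The reverse case is a stretch that cannot tell genes apart. The following 28 nt of exon 5 of Mup19, chr4:61779648-61779675 on the minus strand, were found unchanged in 18 of the 22 Mup genes, among them Mup5 and Mup20 but not Mup3, Mup4 or Mup21.
Mup19: cgagaaccagatttgagttcagacatca

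Over the whole CDS, 17.8% of the 28-nt windows of Mup20, 18.8% of Mup5, 11.2% of Mup4, 2.01% of Mup21 and 1.26% of Mup3 were also present in a Mup gene outside the divergent set. With sharing inside the set included, between 32.4% (Mup4) and 44.3% (Mup3) of windows occurred in some other Mup gene. For the near-identical copies the corresponding share was 94.8% to 100%. For Mup6 it was 21.7%, lower than for any of the 5. The methods describe reads that match 1 location exactly, yet the 5′UTRs of Mup16 and Mup19, at separate loci, carried the same count in each of the 14 libraries (3547179 in all), so how reads that match several copies were counted is not settled here and the counts of shared windows are uncertain.

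Libraries held 40593197 to 90458783 counts. The counts of all Mup transcripts summed to 42.1% to 70.7% of a library's counts, and those of the 5 divergent ones to 1.31% to 1.71% of the same total. These are shares of summed counts, in which the same reads may stand under several copies or isoforms. In 1 library, CT16 replicate 2, every count above 0 was even, against 45.7% to 50.02% in the other 13. Its total was 52332008, or 26166004 when divided by 2, and whether each of its reads was counted 2 times was not tested. In another, CT20 replicate 2, the summed level of 7 pancreatic acinar markers was 3559 CPM (counts as a share of the library, set to a common total) scaled by TMM, edgeR's correction for library composition, against 2.55 to 72.1 in the other 13. Hepatocyte markers were high throughout, at 36558 to 51178. Salivary and lacrimal gland markers, checked because Mup4 and Mup5 are known from such glands, summed to between 0 and 2 raw counts per library, and 5 of the 6 found were at 0 in every library.

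The divergent genes differed widely in how densely counted reads covered their CDS. Mup20 was the most densely covered, followed by Mup5, Mup3 and Mup4, and Mup21 stood far below the rest. Mup5 and Mup4 had almost no reads in their 5′UTR (given below), and whether all their CDS reads came from these genes was not tested. In TMM-scaled CPM per kilobase of CDS, the level was 11757 ± 2950.4 for Mup20 (SD, n = 14 libraries), 7174 ± 3225 for Mup5, 3846 ± 621 for Mup3, 2719.9 ± 910.1 for Mup4 and 124 ± 47.9 for Mup21. These SDs include the differences between circadian times.

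Each neighbour in this order was compared within libraries by an exact two-sided permutation test (sign flips over the 14 libraries), 4 pairs in all. Mup20 exceeded Mup5 by 0.81 on the log2 scale (SD 0.50, higher in 13 of 14 libraries, adjusted p = 0.000326). Mup5 exceeded Mup3 by 0.78 (SD 0.52, 13 of 14, adjusted p = 0.000326) and Mup3 exceeded Mup4 by 0.55 (SD 0.45, 13 of 14, adjusted p = 0.000977). Mup4 exceeded Mup21 by 4.49, or 22.4-fold (SD 0.48, 14 of 14, adjusted p = 0.000326). All 4 mean differences were larger than their SD, but the test concerns the mean ratio and not this spread. The lowest ratio was -0.21 for Mup20 over Mup5, -0.16 for Mup5 over Mup3 and -0.25 for Mup3 over Mup4. The unadjusted p of the last pair, 0.000122, is the smallest that 14 sign flips can give.

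In these counts, all 5 genes lay below the typical density of the other Mup transcripts. Against the median density of the 16 other Mup transcripts in the same library, Mup20 lay at 15.2% to 32.9% (median 17.9%), Mup5 at 7.52% to 17.6% (10.6%), Mup3 at 3.98% to 9.19% (6.51%), Mup4 at 2.96% to 8.23% (4.15%) and Mup21 at 0.139% to 0.242% (0.208%). Among the other transcripts, Mup6 had the lowest mean density (5186) and Mup9 the highest (70105). Mup20 and Mup5, the densest of the divergent genes, also shared the largest part of their windows with the copies. Mup3 shared the least with the copies and was covered 1.47-fold more densely than Mup4 and far more densely than Mup21. The part of shared reads in these levels was not tested. The same reads may also stand under several of the other copies. The level of a single copy is therefore uncertain, and these percents may be too low.

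**Figure D1:**
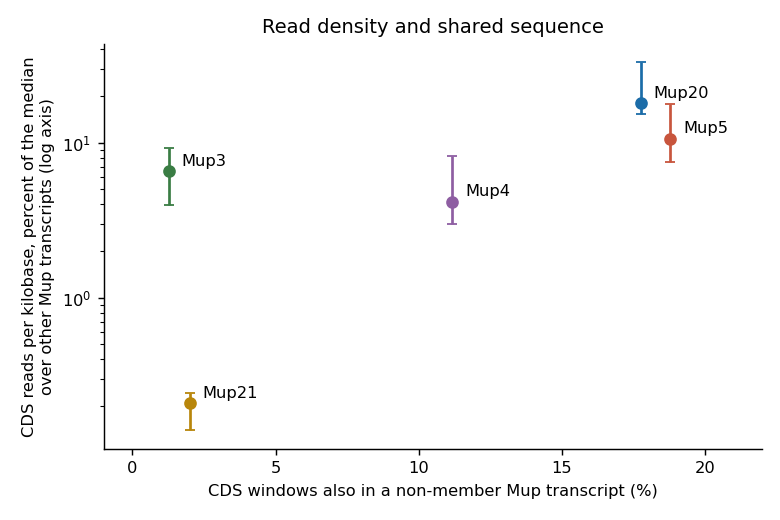
CDS read density of each divergent gene as a percent of the median over the other Mup transcripts in the same library (log axis; point, median of 14 libraries; bars, lowest and highest), against the percent of its 28-nt CDS windows that also occur in a Mup transcript outside the divergent set. Mup20 and Mup5 lie at the upper right, at 17.9% and 10.6%, and Mup3 and Mup21, which share few windows with the copies, differ widely in density, at 6.51% and 0.208%.

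Mup21 and Mup3 are the closest pair in sequence, and 193 of the 546 CDS windows of Mup21 (35.3%) also occur in Mup3. Even so, the CDS count of Mup21 was only 1.87% to 5.40% of that of Mup3 in the same library (median 2.88%). The total count of Mup21 ranged from 2074 to 7963 per library.

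Reads fell in the 5′UTR of 3 of the divergent transcripts and were almost absent from that of Mup4 and Mup5. The 5′UTR held 16.8% ± 3.17 of the reads of Mup3 (SD, n = 14), 11.0% ± 3.34 of those of Mup20 and 10.6% ± 2.91 of those of Mup21. The 15 other Mup transcripts to which the files give a 5′UTR (all but Mup6) had means between 0.908% (Mup10) and 11.6% (Mup7), so Mup20 and Mup21 lay inside this range and Mup3 above it. In Mup4 the share was 0.0161% ± 0.0151. In Mup5 it was 0.000126% ± 0.000256.

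The raw counts show how few reads these are. Over all 14 libraries, the 5′UTR of Mup5 collected 4 reads, 1 in CT4 replicate 1, 2 in CT8 replicate 2 and 1 in CT16 replicate 1, beside 3260349 reads in the CDS. The other 11 libraries had none. Mup4 collected 172 5′UTR reads, between 0 and 30 per library, beside 1242611 in the CDS. Mup21, with far fewer reads altogether, collected 7191 in its 5′UTR beside 57785 in its CDS. Mup3 collected 379006 beside 1809771, and Mup20 696583 beside 5453594.

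Per nucleotide, the 5′UTR of Mup3 was covered 1.45 times as densely as its CDS, that of Mup20 1.04 times and that of Mup21 0.772 times. The ratio was 0.00114 for Mup4 and 1.16e-05 for Mup5. The median over 16812 transcripts was 0.346, and 91.4% of them had a lower ratio than Mup3 but only 11.1% a lower one than Mup5. Most of the 5′UTR of Mup5 is its own sequence, since 41 of its 44 windows occur in no other Mup gene. For Mup4 the number was 29 of 54, and the shared ones match Mup6. Whether the annotated 5′UTR is the one used in these livers was not tested, nor was whether all CDS reads of Mup4 and Mup5 came from these genes.

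**Figure D2:**
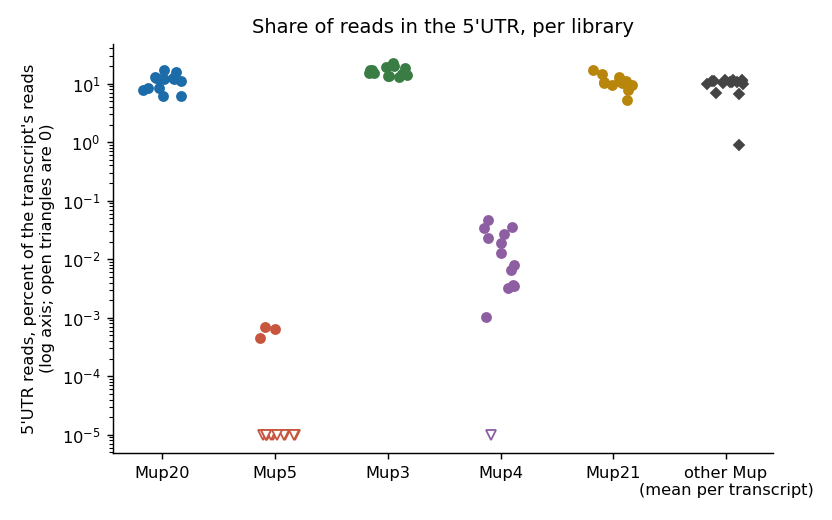
Percent of a transcript's reads that fell in its 5′UTR, 1 point per library (log axis; open triangles stand for 0) for the divergent genes, and 1 diamond per transcript (mean of 14 libraries) for the other Mup transcripts. Libraries lie between 12.9% and 22.9% for Mup3, 6.06% and 17.2% for Mup20 and 5.21% and 17.0% for Mup21, whereas no library exceeds 0.0471% for Mup4 or 0.000682% for Mup5.

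Ribosomes leave the mRNA at the stop codon, and few reads fell in the 3′UTR. It held 1.02% ± 0.219 of the reads of Mup3, 0.470% ± 0.183 of Mup4, 0.224% ± 0.112 of Mup5 and 0.108% ± 0.0332 of Mup20 (SD, n = 14). Mup21 had only 7 reads there in all, with 9 libraries at 0. The 3′UTR-to-CDS ratio per nucleotide was lower than that of Mup3 in 90.3% of 16812 transcripts, and than that of Mup4 in 75.6%. For Mup5 this share was 57.3%, for Mup20 45.2% and for Mup21 25.2%. Means of the other Mup transcripts with a 3′UTR in the files lay between 0.00784% and 0.0733%, below Mup3, Mup4, Mup5 and Mup20. Mup4 and Mup5 have 131 3′UTR windows in common, and their 3′UTR counts were close in number, at 273 to 594 for Mup4 and 293 to 795 for Mup5. Those of Mup20, which shares 70 such windows with Mup4, were as close, at 316 to 679.

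The division of reads between 5′UTR and CDS was also tested over circadian time. Of the divergent genes, 4 could be tested, since Mup5 had too few 5′UTR reads, and 0 passed (limma F test of a 24-h curve, adjusted p from 0.904 to 0.986), beside 0% of 7640 transcripts. At an unadjusted p under 0.05, 377 of the 7640 passed and none of the 4.

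The study asked which transcripts bind ribosomes with a daily rhythm. Of the 5 divergent genes, Mup20 alone passed the test, just inside the threshold of 0.05. A 24-h curve fitted by edgeR's quasi-likelihood test to counts scaled by TMM called 1 of 5, beside 11.3% of the 17299 transcripts tested. The fitted curve of Mup20 peaked at CT 9.55 h (SE 1.22), with its peak above its trough by 0.66 (log2, SE 0.21; below called the difference) and an adjusted p of 0.0496.

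Mup20 counted 5556 and 5158.5 TMM-scaled CPM in the 2 mice at CT0, 6863 and 8949.7 at CT4, 7971 and 10136 at CT8, 8131 and 11007 at CT12, 5114 and 6767 at CT16, 8040.5 and 6445 at CT20, and 6815 and 5437 at CT24. On this scale both mice at CT8 and at CT12 lay above both at CT0, CT16 and CT24. In CPM by total count the highest was CT0 replicate 1, at 8115, and CT24 replicate 1 (7794) exceeded both mice at CT8 (7287 and 7762). There the mice stood at 7285 and 8100 at CT12 and at 6778 and 6493 at CT16. With TMM scaling the step from CT12 to CT16 took the mean from 9569 ± 2033.7 to 5941 ± 1169 (SD, n = 2). The replicates did not contribute alike: replicate 1 alone gave a difference of 0.29 and replicate 2 alone 1.06. With libraries scaled by their total count, the difference of Mup20 was 0.25 (peak CT 7.28 h, adjusted p = 0.563) and 0 of 5 genes passed, beside 8.25% of all transcripts. Over 34 alternative count fits its adjusted p ran from 0.00847 to 0.563, with 10 under the threshold. With each library left out in turn it passed in 2 of 14 fits, without CT16 replicate 1 (0.0226) and without CT20 replicate 1 (0.00953), and without CT20 replicate 2, the library with acinar markers, it was 0.0629. It was 0.00870 by DESeq2's likelihood ratio test, which called 14.7% of all transcripts. JTK_CYCLE, the rank test used by the study, called 0 of 5 genes on either scale. Its adjusted P for Mup20 was 1 on CPM by total count, where it called 22.2% of all transcripts, and 0.0636 on TMM-scaled counts, where it called 17.7%.

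Mup3 had the smallest fitted difference of the 5 with TMM scaling, but not with libraries scaled by their total count. It counted 1622 and 2244 TMM-scaled CPM at CT0, 2571 and 2836 at CT4, 2847 and 2821 at CT8, 3033 and 2786 at CT12, 2045 and 2237 at CT16, 3287 and 2890.1 at CT20, and 2569 and 3035 at CT24. On this scale the mice at CT0 and CT16 were lower than those at every other time, whereas in CPM by total count the lowest was CT12 replicate 2, at 2050.2. The fitted difference was 0.14 (SE 0.22, peak CT 9.40 h, adjusted p = 0.864), and with libraries scaled by their total count the fitted peak moved to CT 23.2 h (difference 0.28, adjusted p = 0.469), and the difference was then above the 0.25 of Mup20. With TMM scaling and 1 library left out, the difference ran from 0.090 (without CT0 replicate 1) to 0.31 (without CT20 replicate 1), it was 0.22 without CT20 replicate 2, and the peak lay between CT 5.20 h and CT 12.6 h.

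Mup4 counted 860.1 and 1419.8 TMM-scaled CPM at CT0, 893 and 2191 at CT4, 1973 and 1689 at CT8, 1220.3 and 2590.1 at CT12, 1480.1 and 1484 at CT16, 1443 and 1399 at CT20, and 996 and 1134 at CT24. Its mice differed most at CT4 and CT12 and hardly at CT16 and CT20. The fitted difference was 0.73 (SE 0.30, peak CT 10.7 h, adjusted p = 0.129). With libraries scaled by their total count it was 0.27 (adjusted p = 0.650). With 1 library left out the adjusted p ran from 0.0437 (without CT12 replicate 1) to 0.380 (without CT12 replicate 2), and it was also under the threshold without CT4 replicate 2 (0.0483).

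Mup5 counted 1192 and 2789.6 TMM-scaled CPM at CT0, 3496 and 4990.5 at CT4, 5843 and 4637 at CT8, 3382 and 5748 at CT12, 2525 and 3996 at CT16, 8103 and 2906 at CT20, and 2772 and 2868 at CT24. Its highest value came from a mouse at CT20 whose partner was among the lower ones. The fitted difference was 0.64 (SE 0.48, peak CT 11.6 h, adjusted p = 0.528). With libraries scaled by their total count it was 0.28 (adjusted p = 0.729). Without CT20 replicate 1 it was 1.20, with a peak at CT 9.23 h and an adjusted p of 0.0185, and without CT0 replicate 1 it was 0.40 (adjusted p = 0.738).

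Mup21, the scarcest, counted 42.5 and 53.4 TMM-scaled CPM at CT0, 70.1 and 101 at CT4, 87.9 and 107 at CT8, 98.3 and 135 at CT12, 33.6 and 59.7 at CT16, 115 and 58.9 at CT20, and 43.5 and 74.9 at CT24. On this scale both mice at CT8 and CT12 exceeded both at CT0, CT16 and CT24, as for Mup20 and for the summed other Mup transcripts. The fitted difference was 0.80 (SE 0.42, peak CT 9.70 h, adjusted p = 0.216). With libraries scaled by their total count it was 0.47 (adjusted p = 0.393). Without CT20 replicate 1 it was 1.29, with an adjusted p of 0.0112, and in the other fits with 1 library left out the adjusted p reached 0.408 (without CT12 replicate 2).

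**Figure D3:**
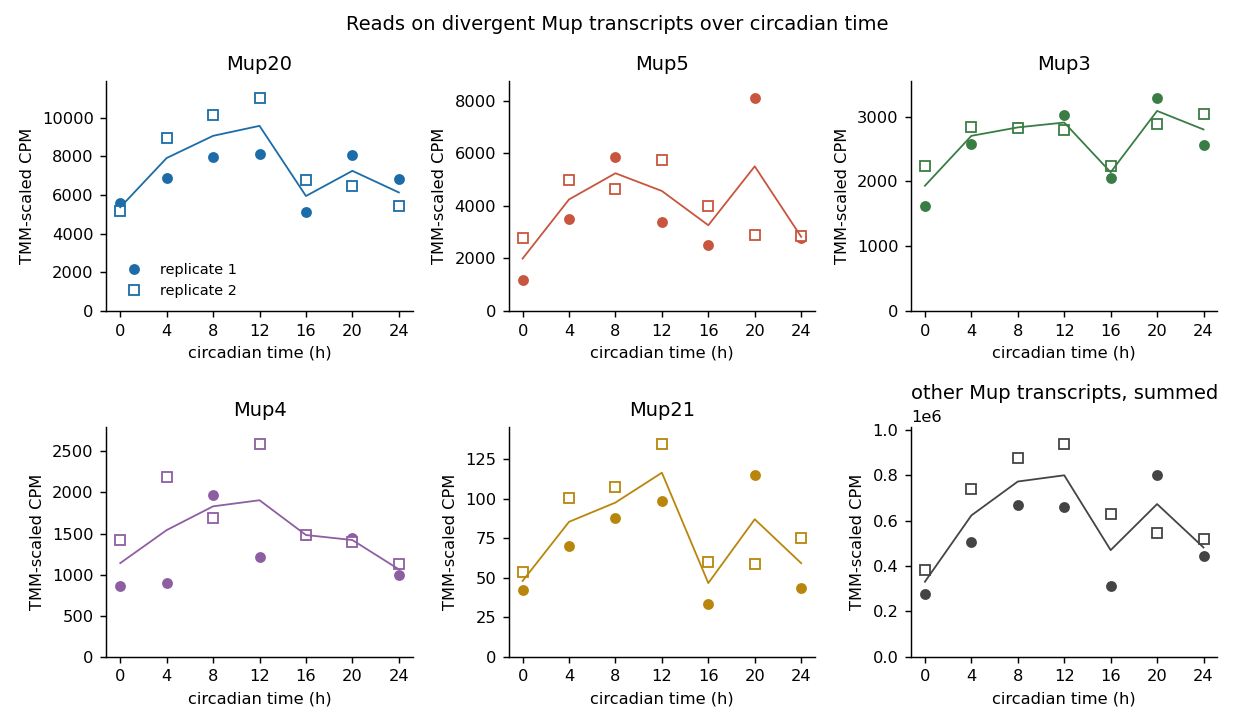
TMM-scaled CPM of each divergent gene and of the summed other Mup transcripts against circadian time in hours (filled circles, replicate 1; open squares, replicate 2; line, mean of the 2). Mup20 and Mup21 have higher means at CT8 and CT12 than at CT0, CT16 and CT24, with CT20 means (7243 and 87.0) close to those of CT4 (7907 and 85.4), Mup3 is lowest at CT0 and CT16 on this scale, and for Mup5 the CT20 mice are far apart at 8103 and 2906.

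With the same TMM scaling, the 16 other Mup transcripts had fitted peaks between CT 10.4 h and CT 11.1 h and differences of 0.70 to 0.79, and 0 of 16 passed (adjusted p from 0.139 to 0.297). Mup4, Mup20, Mup21 and Mup5 had fitted differences close to or inside that range and Mup3 a smaller one. As many copies share reads, these 16 are not independent of each other.

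**Figure D4:**
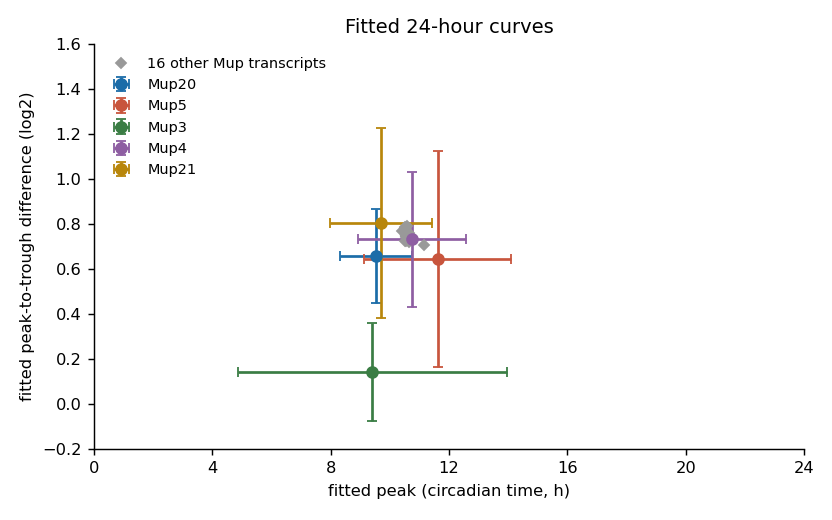
Fitted peak in hours of circadian time against the fitted difference between peak and trough (log2), for the divergent genes (points with SE in both directions) and the 16 other Mup transcripts (diamonds). Mup20, Mup21, Mup4 and Mup5 overlap the other Mup transcripts within their SE, and Mup3 lies below at 0.14.

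The 2 mice of a time were close for Mup3 and far apart for Mup4 and Mup5. The pooled SD over the 7 pairs was 0.16 on the log2 scale for Mup3, 0.25 for Mup20, 0.45 for Mup21, 0.50 for Mup4 and 0.60 for Mup5. The median was 0.24 over the 12029 transcripts whose mean count reached 100. Among the other Mup transcripts the SD ran from 0.37 (Mup13) to 0.54 (Mup6), so Mup4 and Mup21 lay inside their range and Mup5 above it. A smaller SD than that of Mup5 was found for 98.5% of those transcripts, and than that of Mup4 for 96.5%, but for only 19.7% in the case of Mup3.

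A ratio to the summed other Mup transcripts of the same library does not depend on how libraries are scaled, and was tested with that sum as offset in edgeR. None of the 5 divergent genes passed, beside 6.07% of the 17299 transcripts. For transcripts outside the family this ratio carries the variation of the shared Mup sum. That share is therefore no background for a ratio between Mup genes. The same reads may also stand under several copies in the sum, which would lower the percents below. Only Mup3 was under 0.05 before adjustment, as were 4667 of all transcripts, and its adjusted p by edgeR's quasi-likelihood test was 0.164. Mup3 was 0.582% and 0.586% of the other Mup counts at CT0, 0.508% and 0.383% at CT4, 0.426% and 0.322% at CT8, 0.458% and 0.297% at CT12, 0.660% and 0.355% at CT16, 0.410% and 0.531% at CT20, and 0.576% and 0.586% at CT24. All 4 mice at CT0 and CT24 lay above all 4 at CT8 and CT12, a contrast that was not tested, and CT16 replicate 1 was the highest. The sum itself was lower at CT0 and CT24 (means 330868 and 481845 TMM-scaled CPM) than at CT8 and CT12 (772429 and 799889). The fitted peak was at CT 21.9 h with a difference of 0.61. Its adjusted p was 0.0109 without CT16 replicate 1 and 0.0282 without CT20 replicate 1, fits that called 39.2% and 35.2% of all transcripts, and over all 19 alternatives it ran from 0.0109 to 0.439.

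The other 4 genes had smaller fitted differences in this ratio. Mup20 ranged from 1.002% (CT20 replicate 1) to 1.99% (CT0 replicate 1), with a fitted difference of 0.22 and an adjusted p of 0.579. Mup5 ranged from 0.428% (CT0 replicate 1) to 1.01% (CT20 replicate 1), with a difference of 0.14 and an adjusted p of 0.859. Mup4 ranged from 0.176% (CT4 replicate 1) to 0.477% (CT16 replicate 1), with a difference of 0.30 and an adjusted p of 0.664. Mup21 stayed between 0.00947% and 0.0153%, the narrowest range of the 5 at 1.61-fold (difference 0.26, adjusted p = 0.866). These differences were unstable when 1 library was left out. That of Mup20 ran from 0.040 (without CT0 replicate 1) to 0.38 (without CT16 replicate 1) and that of Mup5 from 0.039 (without CT16 replicate 1) to 0.34 (without CT8 replicate 1). That of Mup4 ran from 0.17 (without CT4 replicate 1) to 0.49 (without CT20 replicate 1) and that of Mup21 from 0.14 (without CT16 replicate 2) to 0.36 (without CT20 replicate 1). All of them stayed below the 0.51 to 0.72 of Mup3 in such fits, and none passed.

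**Figure D5:**
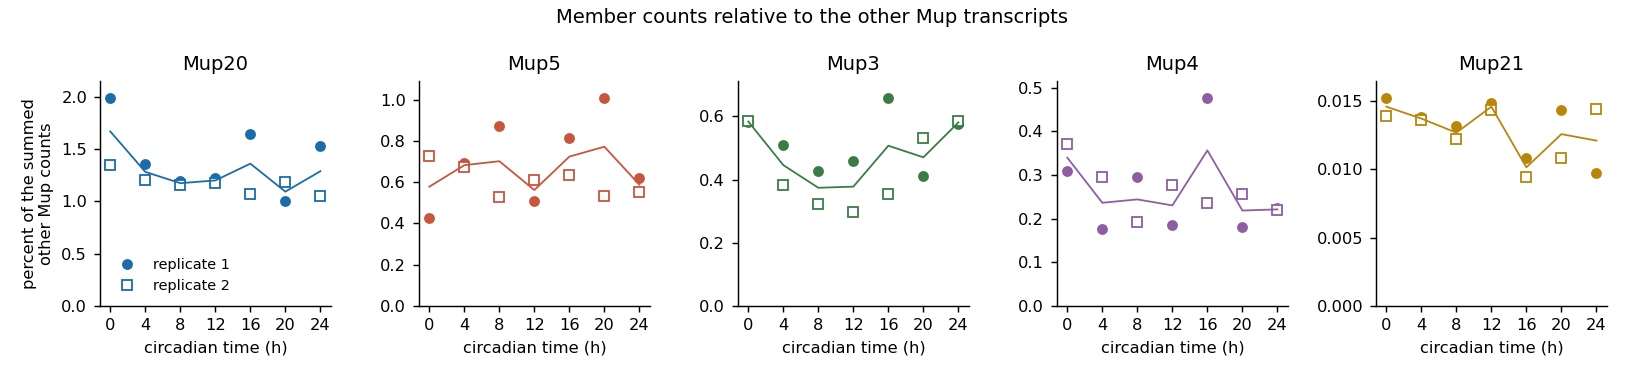
Counts of each divergent gene as a percent of the summed other Mup counts of the same library, against circadian time in hours (filled circles, replicate 1; open squares, replicate 2; line, mean of the 2). Mup3 lies between 0.576% and 0.586% in the CT0 and CT24 mice and between 0.297% and 0.458% at CT8 and CT12. It is highest in CT16 replicate 1, at 0.660%. Mup21 moves within a 1.61-fold range.

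CT24 and CT0 mark the same circadian phase a day apart. No divergent gene passed the test of the difference (edgeR's quasi-likelihood test, 7 times as groups), beside 0% of 17299 transcripts, of which 873 had an unadjusted p under 0.05. Mup3 was higher at CT24 by 0.54 on the log2 scale (1933 ± 440.4 against 2802 ± 329 CPM, n = 2 each, unadjusted p = 0.00660, adjusted p = 0.957). The differences of the others, CT24 minus CT0, were 0.50 for Mup5, 0.30 for Mup21, 0.19 for Mup20 and -0.10 for Mup4. With libraries scaled by their total count, Mup3 was higher by 0.24 (unadjusted p = 0.372 by edgeR's quasi-likelihood test), Mup5 by 0.24, and the values were -0.11 for Mup20, -0.0097 for Mup21 and -0.38 for Mup4. Single libraries moved them too: without CT0 replicate 1, Mup3 was at 0.31 and Mup5 at 0.0025, without CT0 replicate 2 Mup4 was at 0.31 and Mup5 at 1.24, and without CT24 replicate 2 Mup21 was at -0.14.

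The profile over the 14 libraries was most alike between Mup21 and the summed other Mup transcripts (Pearson r of log2 CPM = 0.93), followed by Mup20 (0.89), Mup5 (0.87), Mup3 (0.79) and Mup4 (0.66). Within the set, r was highest between Mup20 and Mup21 (0.85) and lowest between Mup3 and Mup4 (0.37). These values are descriptions over libraries that share depth, scaling and, in part, reads.

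Among genes outside the family, those with the most similar profile to Mup20 were Aadat, a kynurenine aminotransferase (r = 0.95), Cyp7b1, the oxysterol 7-alpha-hydroxylase (0.94), the complement component C6 (0.91), Lifr, a cytokine receptor chain (0.90), and Ugt2b38 (0.89). Cyp7b1, C6 and Ugt2b38 are also on the list of male-biased liver genes used below, and how common list members are among similar profiles was not tested. For Mup21 they were Chm (0.91), Cyp7b1 (0.91), Cnot7 (0.87), Rps6ka1 (0.86) and C6 (0.85), all ranked behind at least 15 Mup transcripts. For Mup3 they were Cfhr2, a complement factor H-related gene (0.91), Galc (0.85), Sub1 (0.83), Gm4788 (0.83) and Lifr (0.83), and no Mup transcript ranked above them. The same was true of Mup4, with Zdhhc20 (0.94), Serinc1 (0.86), Kdsr (0.84), Arl6ip1 (0.84) and Ulk3 (0.83). For Mup5 they were Cnot7 (0.90), Ap3s1 (0.82), Tank (0.81), Ly86 (0.81) and Ube2g1 (0.81).

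Genes that act on the Mup family, or on the making and export of such proteins, were read by the same 24-h test, beside the 11.3% called over all transcripts and a median fitted difference of 0.44. Of 16 growth hormone signalling genes tested, 4 were called. They included Irs2 (peak CT 23.4 h, difference 1.35) and the signal transducers Stat5a (CT 23.98 h, 1.10) and Stat5b (CT 0.955 h, 0.87), while the receptor Ghr had a fitted difference of 0.04 (adjusted p = 0.978) and Igf1 0.34 (adjusted p = 0.319). The list's median was 0.59.

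Of 22 transcription factors and nuclear proteins known to act on Mup genes, 3 were called, with a median of 0.41. They were Foxa3 (CT 13.9 h, 1.05), Cebpb (CT 13.2 h, 1.02) and Nfic (CT 19.7 h, 0.86), while Cebpa had a difference of 0.18 (adjusted p = 0.826) and Hnf4a 0.36 (adjusted p = 0.349). Among 22 male-biased liver genes 5 were called, among them Elovl3, a fatty acid elongase (CT 0.347 h, 3.97), Mcm10 (1.43) and Moxd1, which was almost uncounted (median 0.00843 CPM, highest 2.03) and whose fitted size is not given, with a median of 0.43; the highly counted Serpina1e (0.28) and Gstp1 (0.37) did not pass. Among 12 female-biased genes 5 were called, among them Cyp2a4 (3.85) and Acot3 (3.56), both scarce in these males, with a median of 1.73, and Cd36 (0.26) and Cyp2c69 (0.70) did not pass. The 5 called female-biased genes peaked between CT 15.8 h and CT 18.3 h, and the 7 pancreatic acinar markers, all called, between CT 18.3 h and CT 19.2 h. Without CT20 replicate 2, 0 of the 7 acinar markers were called and the same 5 female-biased genes were.

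Of 14 lipocalins and related binding proteins, 1 was called, Lcn2 (CT 10.5 h, 1.74, adjusted p = 0.0494), with a median of 0.57, while Fabp1 (0.17) and the retinol carrier Rbp4 (0.29) did not pass. Without CT20 replicate 2 the adjusted p of Lcn2 was 0.0687, and 0 of the 14 were called. Of 21 genes for entry into the secretory pathway, 3 were called. They were Srprb (CT 14.8 h, 0.63) and Srpr (CT 14.3 h, 0.44), the subunits of the signal recognition particle receptor, and Srp72 (CT 15.1 h, 0.54), a subunit of the particle. Sec61a1 (0.19) and Ssr3 (0.41) did not pass. Nor did the other tested particle subunits, Srp9, Srp14, Srp19 and Srp68 (adjusted p from 0.422 to 0.969; named after their values were seen). The list's median was 0.23.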

How the data were processed

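Ribosome footprints were sequenced from 14 mouse livers, 2 at each of 7 circadian times (26- to 32-nt reads kept). Per the labels and the methods, the authors removed rRNA reads, mapped the rest to mm10 with Bowtie2 2.1.0.0, kept exact matches with SAMtools 0.1.19.0 and assigned each read to an A-site nucleotide. They deposited raw counts for each RefSeq transcript, split into CDS and the UTRs on either side, with region lengths. These lengths set each CDS 6 nt longer than the reference for the 5 genes. A second run of 1 sample, CT16 replicate 2, the library with only even counts, was not analysed here. Of 28167 transcripts, 27836 were named through RefSeq (GRCm38.p6) and 120 through GENCODE M21.

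Region counts were added per transcript and tested where the mean was at least 10 with edgeR 4.0.16 (quasi-likelihood F test of a 24-h cosine and sine, TMM, Benjamini-Hochberg over all 17299 transcripts), likewise with the log of the summed other Mup counts as offset, and for CT24 against CT0. The ratio of 5′UTR to CDS counts (pseudocount 0.5) was tested with limma 3.58.1. Alternatives used DESeq2 1.42.0, a reimplemented JTK_CYCLE, other scalings, filters and left-out libraries. TMM moved libraries by -0.44 to 0.55 (log2) against scaling by total count. The fits were tested on simulated data. Totals of 40593197 to 90458783 counts per library set the precision; PCR copies were not marked, so counts are not independent molecules. Windows of 28 nt of the 16 Mup genes of the files with a RefSeq model were compared with the models of all 22 Mup genes annotated on chromosome 4. Likeness used log2 of CPM plus 0.05.

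The genes and lists were chosen with earlier results of these data known. The named genes are the 5 genes, for each the 5 genes outside the family with the highest Pearson r, and from each list up to 3 called genes with the largest fitted difference and up to 2 others with the highest count. One gene that this rule names is not reported here. The replicates are separate mice, 2 per time, which limits every comparison.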

Additional observations from a re-analysis of the deposited data

How the results depend on the processing

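The call of Mup20, the 1 divergent gene past the threshold of the 24-h test, did not hold under most settings, and the cause was not tested. Its fitted difference was 0.66 in the main fit, 0.57 to 0.83 with 1 library left out and 0.25 with total-count scaling. No divergent gene (0) passed with total-count scaling, DESeq2 size factors, a minimum mean of 100, 1 transcript per gene, the 7 times as a factor, either JTK_CYCLE setting, CT0, CT4, CT8, CT12 or CT24 left out, the replicate block, or (chosen after seeing the data) the counts of CT16 replicate 2 divided by 2. The number was 2 with CT16 left out, 3 with CT20 left out and 3 without CT16 replicate 2 and CT20 replicate 1 (chosen after seeing the data), fits that called 8.55%, 11.4% and 9.65% of all transcripts. With 1 library left out it ran from 0 to 3, and Mup20 passed in 2 of 14 such fits, without CT16 replicate 1 and without CT20 replicate 1. Without CT20 replicate 2, the library with acinar markers, its adjusted p was 0.0629, and without CT16 replicate 2 it was 0.0618.

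Over all transcripts the calls were 1947, and 1250 with 1 transcript per gene, 1225 with times as a factor, 1159 without CT8, 1059 without CT12, 3840 by JTK_CYCLE on CPM and 3069 on TMM-scaled counts; without 1 library they ran from 1499 to 2062. Relative to the other Mup transcripts, 1050 were called, 1844 with the replicate block and 473 to 6777 without 1 library, the highest being 6777 without CT16 replicate 1 and 6096 without CT20 replicate 1, with 0 to 1 divergent genes. For CT24 against CT0 the count of 0 became 1 with total-count scaling, 6 with the block and 0 to 2 without 1 library. The replicate block changed no other call among the 5 genes. Over all transcripts, same-numbered libraries did not deviate together, with correlations from -0.066 to 0.197 over 21 pairs of times. The summed other Mup transcripts were nevertheless higher in replicate 2 than in replicate 1 at every time but CT20. Whether the numbers pair the samples for this family was not tested. The order of CDS density kept its direction and its side of the threshold in all 64 alternatives, but the 4 that divide by unshared CDS positions keep the shared reads and only shift each ratio by a constant, so they do not show the order without shared reads. No 5′UTR to CDS test passed in any setting. Among the gene lists, leaving out CT20 replicate 2 (chosen after seeing the data) changed the calls from 4 to 3 for growth hormone signalling, from 5 to 6 for male-biased genes and from 1 to 0 for lipocalins, and the other 3 lists kept the same called genes.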
